A study of Mus musculus with 8 samples.

Results

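Chromatin accessibility was examined at the loci of Tcf7 and Lef1 in mouse regulatory T (Treg) cells. Tcf7 encodes TCF-1 and Lef1 encodes LEF-1. The members were the sites of the deposited count table whose midpoint lay between 52.05 and 52.13 Mb of chromosome 11 for Tcf7 or between 130.78 and 130.96 Mb of chromosome 3 for Lef1, both on mm9. This rule gave 76 of 79758 sites, 23 in the Tcf7 window and 53 in the Lef1 window. It used position alone and no measured value.

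The assay was ATAC-seq. A transposase inserts adapters where chromatin is open, so a count at a site reflects how often the enzyme reached it. The 4 groups were Pggt1b-deficient eTreg, WT eTreg, Pggt1b-deficient cTreg and WT cTreg cells, with 2 libraries each, sorted from spleen and lymph nodes of mixed bone marrow chimeras. In such chimeras marrow of more than 1 donor develops in 1 host, and cTreg and eTreg are the usual short forms of central (resting) and effector Treg cells. The labels name neither the Pggt1b allele, nor what drives its loss, nor the age of the mice, nor the sort markers, and nothing states that libraries of 1 group stem from different chimeras. The p-values below therefore set group differences only against the spread among these libraries. That spread was estimated over all 4 groups together and may be technical.

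TCF-1 and LEF-1 are HMG-box transcription factors that bind the same short DNA motif and act with beta-catenin at Wnt target genes. In T cells both are known for high expression in naive and central cells and low expression in effector cells, and both have been tied to the resting Treg state. The Pggt1b protein is the catalytic subunit of GGTase-I, a prenylating enzyme that attaches a lipid to small GTPases such as RhoA and Rac1. The comparisons ask how accessibility differs between eTreg and cTreg cells, and whether either subset differs when Pggt1b is missing.

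The gene table at hand is on GRCm38.p6, another build than that of the counts, so no site was placed in a promoter, exon or intron, and the windows stand for the loci as the rule gives them. That table puts Tcf7 on chromosome 11 between Skp1 and Vdac1, and Lef1 on chromosome 3 between Rpl34 and Hadh, in order of protein-coding genes. To show the kind of DNA at one of the genes, the 250 bases before the first listed Lef1 transcript start (RefSeq, GRCm38.p6, chromosome 3, plus strand) are given 5′ to 3′ with the GC box GGGCGG in capitals.
Lef1: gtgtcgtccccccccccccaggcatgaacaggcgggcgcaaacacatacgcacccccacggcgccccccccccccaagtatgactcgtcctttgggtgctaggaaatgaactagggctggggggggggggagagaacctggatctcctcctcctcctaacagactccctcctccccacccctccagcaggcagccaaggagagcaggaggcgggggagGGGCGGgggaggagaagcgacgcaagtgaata
This stretch is 66.4% G or C and holds 1 GC box, a motif that 32.9% of 27025 RefSeq windows of the same length hold on either strand. It does not hold the TCF/LEF motif CTTTGAT on either strand, against 3.23% of windows that do. The sites below could not be placed on this stretch. No Tcf7 stretch is shown, because neither of its 2 entries in the sequence table begins at the gene's first listed start.

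Library totals were 2255214 and 1664702 counts in Pggt1b-deficient eTreg, 11194290 and 14974253 in WT eTreg, 8854687 and 7153991 in Pggt1b-deficient cTreg, and 12198749 and 12660311 in WT cTreg. The Tcf7 window held 450 and 341 counts in the Pggt1b-deficient eTreg libraries, against 1629 to 2652 in the other 6. The Lef1 window held 990 and 865 counts in the Pggt1b-deficient eTreg libraries, against 3603 to 5774 in the other 6. Comparisons with Pggt1b-deficient eTreg cells therefore rest on few counts at most sites. Of counts from 1 to 10, 66.1% to 77.4% were even, so many counts come in pairs. Levels are given as CPM, counts scaled to a common library size with the TMM factors of edgeR, and are summed over a site, so a wide site can have a high value through its width. Values per kb of width are given where sites are set against each other. Calls were made with the quasi-likelihood test of edgeR, at p under 0.05 after adjustment over all 75352 sites tested. Of the members, 71 passed the filter on low counts, 22 in Tcf7 and 49 in Lef1.

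Both windows held a few wide sites with high CPM among many narrow ones with low CPM. Site widths ran from 4 to 405 bp in Tcf7 with a median of 88 bp, and from 11 to 1513 bp in Lef1 with a median of 85 bp, against a median of 104 bp over all sites. The Lef1 site with the highest CPM was also its widest, chr3:130910613-130912126, with 109 and 156 CPM in Pggt1b-deficient eTreg, 117 and 112 in WT eTreg, 123 and 118 in Pggt1b-deficient cTreg, and 118 and 114 in WT cTreg. Apart from the single value of 156 CPM, its libraries lay close together. The second Lef1 site by CPM, chr3:130814864-130815715, had 56.5 and 60.4 CPM in Pggt1b-deficient eTreg, 57.9 and 57.2 in WT eTreg, 62.6 and 50.8 in Pggt1b-deficient cTreg, and 53.5 and 55.7 in WT cTreg. Neither site was called in any comparison. Per kb of width these sites averaged 80 and 66.8 CPM over the 4 groups, below chr3:130860279-130860769 at 112 CPM per kb.

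The widest Tcf7 site, chr11:52113187-52113592, also had the highest CPM there, with 38.1 and 41.5 CPM in Pggt1b-deficient eTreg, 43.7 and 42.7 in WT eTreg, 44.2 and 41.7 in Pggt1b-deficient cTreg, and 40.4 and 40.9 in WT cTreg. Another site with high CPM, chr11:52079095-52079482, had 25.1 and 29.6 CPM in Pggt1b-deficient eTreg, 35.2 and 32.8 in WT eTreg, 35.6 and 32 in Pggt1b-deficient cTreg, and 35.3 and 35.4 in WT cTreg. Both stood outside every call. The lower Pggt1b-deficient eTreg values of the last site gave a log2 fold change of -0.32 ± 0.17 (SE) against WT eTreg, with an edgeR adjusted p of 0.238. Per kb of width these sites averaged 103 and 84.3 CPM, against 132 CPM at chr11:52088940-52089222, another of the 3 Tcf7 sites with the highest CPM.

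In WT cells, eTreg had lower accessibility than cTreg at 19 of the 49 tested Lef1 sites and at 3 of the 22 tested Tcf7 sites, while 2 Lef1 sites and no Tcf7 site were higher. Over all tested sites 28.7% were called in this comparison, 13.8% higher and 14.9% lower. The share called lower was 38.8% in Lef1 and 13.6% in Tcf7, the last near the background. The median log2 fold change was -0.70 over the Lef1 sites and -0.32 over the Tcf7 sites, against 0 over all sites. Every WT eTreg library was below every WT cTreg library at 33 of 49 Lef1 and 12 of 22 Tcf7 sites, and above at 8 and 3, against 33.9% below and 33.7% above over all sites. In these bulk libraries, fewer cells with an open site and a less open site in each cell cannot be told apart.

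**Figure D1:**
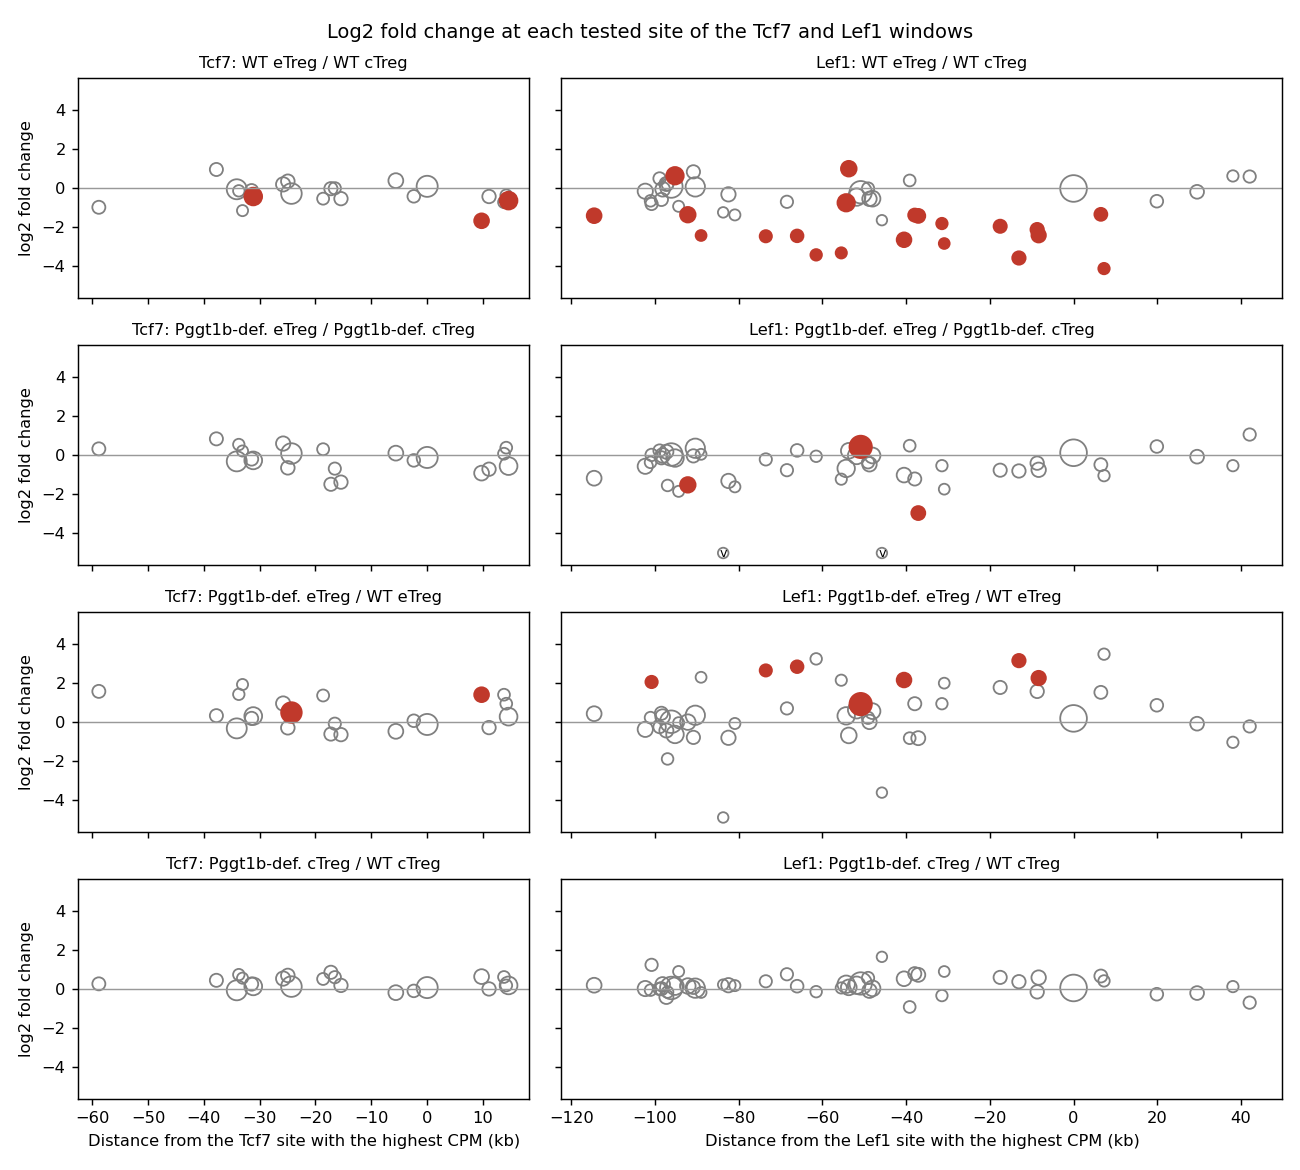
Log2 fold change of each tested site in 4 comparisons (rows) against its distance in kb from the site with the highest CPM in the Tcf7 window (left) and the Lef1 window (right), with filled red points for called sites, open points for sites not called, point size growing with mean CPM, and values below -5 drawn at -5 with a downward mark. In WT eTreg against WT cTreg, 19 Lef1 sites and 3 Tcf7 sites were called lower, and in Pggt1b-deficient against WT cTreg none was called.

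At the Lef1 site with the largest WT change among those named, chr3:130898278-130898364, accessibility was 0.556 and 0.272 CPM in WT eTreg, against 5.48 and 4.2 CPM in WT cTreg. The groups did not overlap, and the log2 fold change was -3.57 ± 0.49 (SE), with an edgeR adjusted p of 3.09e-07. At chr3:130870792-130870966 the values were 1.48 and 1.09 CPM in WT eTreg, against 8.13 and 7.76 CPM in WT cTreg. Here too every eTreg library was below every cTreg library, with a log2 fold change of -2.64 ± 0.33 and an edgeR adjusted p of 3.87e-08. At chr3:130845289-130845397 WT eTreg had 0.556 and 0.543 CPM, against 3.06 and 3.01 CPM in WT cTreg, a log2 fold change of -2.44 ± 0.53 with an edgeR adjusted p of 0.000431. At chr3:130902960-130903110 WT eTreg had 0.741 and 1.63 CPM, against 5.88 and 7.36 CPM in WT cTreg, a log2 fold change of -2.41 ± 0.35 with an edgeR adjusted p of 1.16e-06. The 4 sites were 86 to 174 bp wide. They stayed called under each of the 16 alternatives tried for each.

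The other 15 Lef1 sites called lower in WT eTreg had log2 fold changes from -4.11 to -0.75 with a median of -1.95. The largest of these, chr3:130918616-130918674, had 2 counts over the WT eTreg libraries, against 40 over the WT cTreg libraries, and is named after its values were seen. Scaled for depth this was 20.4-fold lower in WT eTreg, with a 95% Clopper-Pearson interval of 3.26 to 845 that takes every 2 counts as 1 and covers counting error only. A pair of untested sites had no WT eTreg count. At chr3:130843258-130843269 there were 0 counts in WT eTreg and 15 in WT cTreg, and at chr3:130847202-130847214 there were 0 in WT eTreg and 20 in WT cTreg. Against a floor of 6 counts over the WT eTreg group, the observed WT cTreg counts gave 2.55-fold and 3.4-fold. These values leave out the counting error of the WT cTreg counts, so they are not lower limits. Both sites were singled out for their 0 counts, and Pggt1b-deficient eTreg also had 0 counts at each.

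Only 2 members were called higher in WT eTreg than in WT cTreg by edgeR, both in Lef1. At chr3:130857572-130857794 WT eTreg had 13.5 and 14.9 CPM, against 5.96 and 8.39 CPM in WT cTreg, a log2 fold change of 0.99 ± 0.22 with an edgeR adjusted p of 0.00075. At chr3:130816030-130816314 WT eTreg had 19.8 and 24.5 CPM, against 13.9 and 14.8 CPM in WT cTreg, a log2 fold change of 0.63 ± 0.17 with an edgeR adjusted p of 0.00419. The groups did not overlap at either site. Without WT cTreg replicate 1 the edgeR adjusted p was 0.0708 at the first site, within a range of 2.16e-05 to 0.0708 over its alternatives, and 0.0819 at the second. Without WT eTreg replicate 2 it was 0.168 at the second, whose range was 0.000373 to 0.168. The lower site chr3:130856984-130857133 lay in the same part of the window as the first of them, with 11.5 and 10.6 CPM in WT eTreg and 17.7 and 19.4 CPM in WT cTreg, so neighbouring sites differed in direction.

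In Tcf7 the clearest WT difference was at chr11:52123063-52123208, with 1.67 and 2.85 CPM in WT eTreg, against 7.81 and 7.05 CPM in WT cTreg. The log2 fold change was -1.67 ± 0.29 with an edgeR adjusted p of 2.54e-05, and it stayed called under the 16 alternatives. At chr11:52127777-52128155 WT eTreg had 14.2 and 12.1 CPM, against 21.2 and 19.6 CPM in WT cTreg, a log2 fold change of -0.64 ± 0.16 with an edgeR adjusted p of 0.00249. Without WT eTreg replicate 2 that edgeR adjusted p was 0.0787, within a range of 0.000254 to 0.0787. The third site, chr11:52082165-52082318, had 14 and 14.3 CPM in WT eTreg, against 18.6 and 19.6 CPM in WT cTreg. Its edgeR adjusted p of 0.04997 was just under the threshold and its log2 fold change was -0.43 ± 0.17. The call was lost under 10 of 16 alternatives, with adjusted p from 0.0165 to 0.247, among them without WT cTreg replicate 1 (0.139) or 2 (0.247), WT eTreg replicate 1 (0.184) or 2 (0.169), and Pggt1b-deficient cTreg replicate 1 (0.0527) or 2 (0.0503).

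The number of calls in WT cells depended on single libraries, and this was not particular to the members. Over all tested sites too, fewer were called when any WT library was left out. More were called there without either one of the Pggt1b-deficient eTreg libraries. Without WT eTreg replicate 2, edgeR called 13 Lef1 sites and 1 Tcf7 site in all. Without WT cTreg replicate 1 it called 14 Lef1 sites, all lower in WT eTreg. Without either one of the Pggt1b-deficient eTreg libraries it called 6 Tcf7 sites, 1 of them higher. The median log2 fold change over the Lef1 sites stayed between -0.76 and -0.65 whichever library was left out.

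Between the WT subsets the ratio of summed CPM was nearer 1 at the sites with the highest CPM than at the others. The 3 sites of each window with the highest mean CPM summed to 107.1 and 107.9 CPM in WT eTreg and 114.5 and 111.1 CPM in WT cTreg for Tcf7, and to 216.1 and 209.1 CPM in WT eTreg and 217.5 and 216.5 CPM in WT cTreg for Lef1. These are ratios of 0.953 and 0.98. The other 50 Lef1 sites summed to 172.2 and 180.2 CPM in WT eTreg, against 239.3 and 240.7 CPM in WT cTreg, a ratio of 0.734. The other 20 Tcf7 sites summed to 75.72 and 72.16 CPM in WT eTreg, against 94.71 and 90.76 CPM in WT cTreg, a ratio of 0.797. In all 4 of these sums every WT eTreg library was below every WT cTreg library. With 2 libraries a group an exact permutation test cannot go below p = 0.33, so sums are given without a test. Of the 39 tested Lef1 sites under 200 bp wide 17 were called lower, and of the 10 wider ones 2 were called lower and 2 higher. Over all tested sites 13.9% of those under 200 bp and 17.2% of those at least 200 bp wide were called lower. Of the 21843 tested sites at least 200 bp wide, 4901 were called higher.

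**Figure D2:**
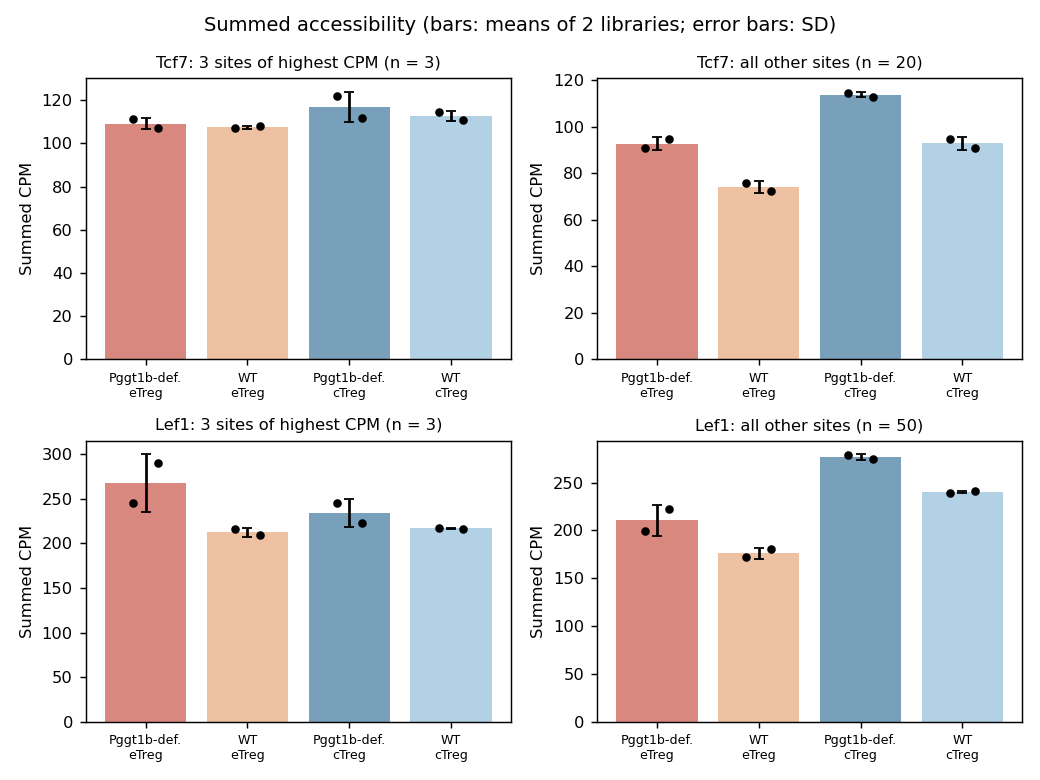
Summed CPM per library (points) with group mean and SD (bars and error bars, axis from 0) for the 3 sites with the highest mean CPM and for all other sites of each window, in the 4 groups. Among the other Lef1 sites the WT eTreg libraries at 172.2 and 180.2 CPM are the lowest, and the Pggt1b-deficient cTreg libraries at 278.5 and 274.5 CPM the highest.

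Within the Lef1 window the lower sites were unevenly spread. From 130.87 to 130.90 Mb, 7 of 8 tested sites were called lower in WT eTreg, with a median log2 fold change of -1.88. The 9 sites of that stretch summed to 9.454 and 9.299 CPM in WT eTreg, against 31.17 and 31.04 CPM in WT cTreg, a ratio of 0.301. The longest run of neighbouring tested sites that were all called lower held 8 sites over 29.7 kb, from position 130873379 to 130903110. From 130.81 to 130.84 Mb the sums were 140.8 and 148.6 CPM in WT eTreg, against 143.2 and 147.1 CPM in WT cTreg, so the subsets overlapped in that stretch, where 3 of 18 sites were called lower and 1 higher. From 130.93 to 130.96 Mb 0 of 4 tested sites were called. Over all tested sites 14.9% were called lower in WT eTreg and 13.8% higher. The stretches were laid on a fixed grid, and the one from 130.87 Mb was singled out after its values were seen.

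**Figure D3:**
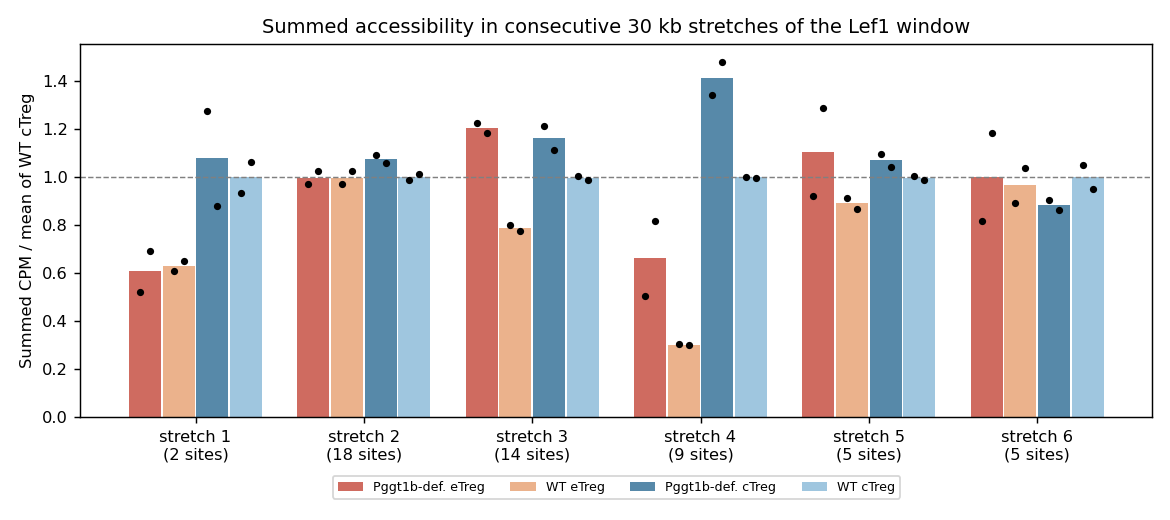
Summed CPM of Lef1 sites per 30 kb stretch in each library, relative to the WT cTreg mean of the same stretch (dashed line at 1), by group, with stretch 4 covering 130.87 to 130.90 Mb. In stretch 4 the WT eTreg libraries sit lowest and the Pggt1b-deficient cTreg libraries highest, in a stretch singled out for its WT values.

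In cTreg cells no member was called between the genotypes. Pggt1b-deficient cTreg cells had 0 of 22 Tcf7 sites and 0 of 49 Lef1 sites called against WT cTreg cells by edgeR, against 2.21% of all tested sites, 0.53% higher and 1.69% lower. DESeq2 and limma voom with group weights also called 0 in both windows, against 867 and 2866 of all 75352 tested sites. An unadjusted p under 0.05 in edgeR was seen at 2 Tcf7 and 7 Lef1 sites, against 10336 of all tested sites. Without both Pggt1b-deficient eTreg libraries, edgeR called 1 Lef1 site here, against 3163 of all 75736 sites then tested. The median log2 fold change was 0.26 over the Tcf7 sites and 0.15 over the Lef1 sites, against -0.03 over all sites. It was above 0 at 19 of 22 Tcf7 and 37 of 49 Lef1 sites, against 34982 of all 75352 tested sites. The Tcf7 median was 0.16 without WT cTreg replicate 2. Both Pggt1b-deficient libraries were above both WT libraries at 10 Tcf7 and 17 Lef1 sites, and below them at 0 and 5, against 20.7% above and 26.3% below over all sites. The Tcf7 sites summed to 236.5 and 224.8 CPM in Pggt1b-deficient cTreg, against 209.2 and 201.9 CPM in WT cTreg, and the Lef1 sites to 524.1 and 497.2 CPM in Pggt1b-deficient cTreg, against 456.9 and 457.3 CPM in WT cTreg. In both windows the sums of the genotypes did not overlap, at a ratio of 1.12 each. The sites of a window share their libraries and are not replicates.

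Pggt1b-deficient eTreg cells were above WT eTreg cells at 7 of 49 Lef1 sites and 2 of 22 Tcf7 sites, and below them at none by edgeR with all libraries. Without Pggt1b-deficient eTreg replicate 2, edgeR called 1 Tcf7 site higher and 1 lower, and 5 Lef1 sites higher and 1 lower. Over all tested sites 11.1% were called, 4.66% higher and 6.43% lower. Of all calls 42% were thus higher by edgeR, against 55.9% by limma voom with group weights. The median log2 fold change was 0.32 over the Lef1 sites and 0.29 over the Tcf7 sites, against -0.09 over all sites. The Lef1 median was 0.19 without Pggt1b-deficient eTreg replicate 1. Both Pggt1b-deficient libraries were above both WT libraries at 18 Lef1 and 9 Tcf7 sites, and below them at 10 and 4, against 21% above and 31.5% below over all sites. At an unadjusted p under 0.05 by edgeR there were 15 Lef1 and 4 Tcf7 sites, against 19039 of all 75352 tested sites. The voom test called 6 Lef1 sites, all of them among the 7, and 0 Tcf7 sites, and DESeq2 called 9 Lef1 sites and 1 Tcf7 site. Over all 75352 tested sites voom called 4586 and DESeq2 called 6078.

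The firmest of these was chr3:130860279-130860769, a 490 bp site with 78.9 and 73.5 CPM in Pggt1b-deficient eTreg, against 40.8 and 39.9 CPM in WT eTreg. The same site had 59.6 and 54.2 CPM in Pggt1b-deficient cTreg and 45.9 and 47.2 CPM in WT cTreg. Both Pggt1b-deficient eTreg libraries were above all 6 others. The log2 fold change between the genotypes in eTreg was 0.92 ± 0.13 with an edgeR adjusted p of 1.92e-06, and it stayed called under its 15 alternatives. In cTreg it was 0.29 ± 0.10 with an edgeR adjusted p of 0.156, not called. WT eTreg and WT cTreg differed there by -0.21 ± 0.10, with an edgeR adjusted p of 0.136, not called either.

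The 4 Lef1 sites named above for their low WT eTreg values were also called higher in Pggt1b-deficient eTreg than in WT eTreg. Both comparisons use the same WT eTreg libraries, so the calls are not independent of each other. At chr3:130898278-130898364 Pggt1b-deficient eTreg had 3.14 and 4.15 CPM, against 0.556 and 0.272 CPM in WT eTreg, from 7 and 7 counts against 6 and 4. The log2 fold change was 3.14 ± 0.71 with an edgeR adjusted p of 0.00246. At chr3:130870792-130870966 Pggt1b-deficient eTreg had 4.48 and 7.11 CPM, against 1.48 and 1.09 CPM in WT eTreg, a log2 fold change of 2.15 ± 0.48 with an edgeR adjusted p of 0.00242. At chr3:130902960-130903110 Pggt1b-deficient eTreg had 4.48 and 7.7 CPM, against 0.741 and 1.63 CPM in WT eTreg. At chr3:130845289-130845397 the Pggt1b-deficient eTreg libraries differed widely, with 6.28 and 1.19 CPM from 14 and 2 counts, against 0.556 and 0.543 CPM in WT eTreg. The groups did not overlap at any of the 4 sites. Without Pggt1b-deficient eTreg replicate 1, 5 of the 7 Lef1 calls remained, and without Pggt1b-deficient eTreg replicate 2, 4 remained.

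**Figure D4:**
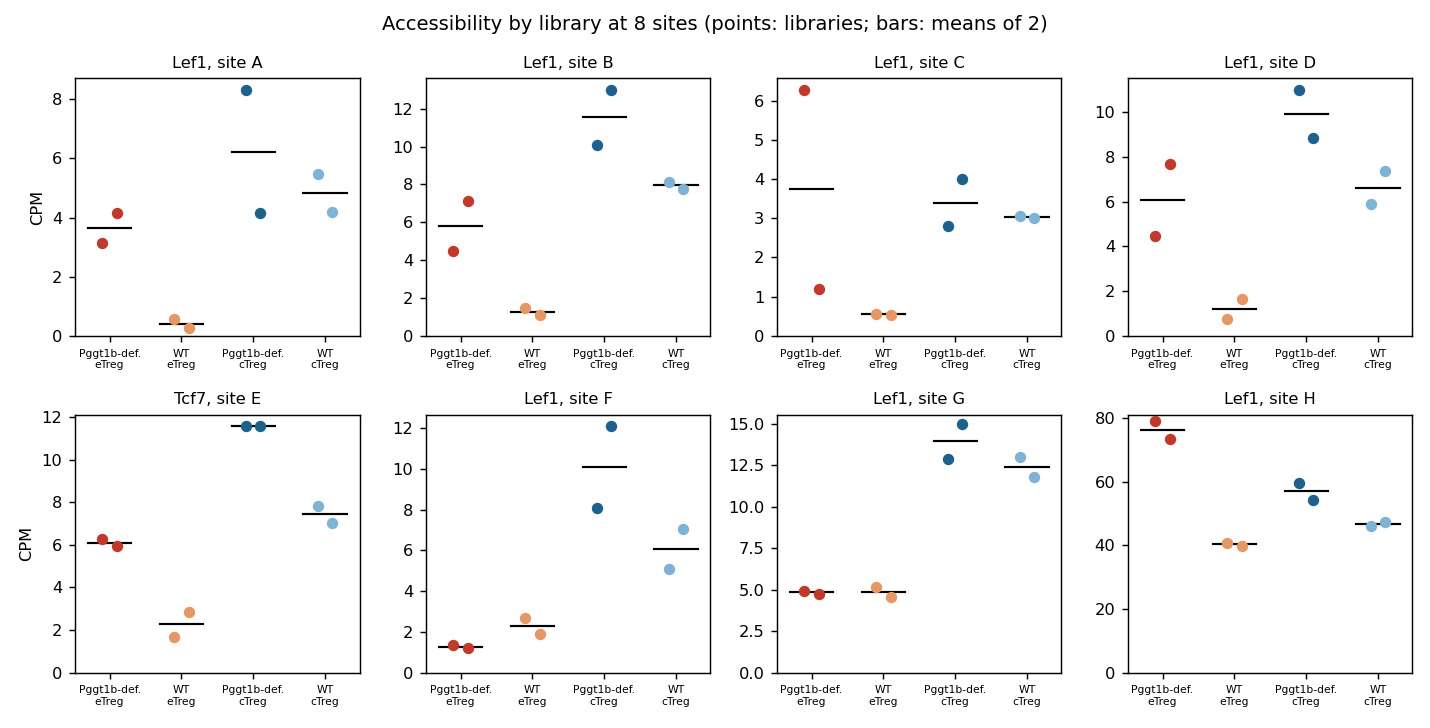
CPM per library at 8 sites in the 4 groups, 1 panel a site, with group means as lines: A is chr3:130898278-130898364, B chr3:130870792-130870966, C chr3:130845289-130845397, D chr3:130902960-130903110, E chr11:52123063-52123208, F chr3:130874145-130874422, G chr3:130819118-130819356 and H chr3:130860279-130860769. In A to E both Pggt1b-deficient eTreg libraries lie above both WT eTreg libraries, in F they lie below them, in G the eTreg groups overlap, and in H the Pggt1b-deficient eTreg libraries lie above all others.

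In Tcf7, chr11:52123063-52123208 had 6.28 and 5.93 CPM in Pggt1b-deficient eTreg, against 1.67 and 2.85 CPM in WT eTreg. The libraries did not overlap, and the log2 fold change was 1.40 ± 0.43 with an edgeR adjusted p of 0.0297. Over its 15 alternatives the adjusted p ran from 0.0234 to 0.161, and the call was lost under 6, among them limma voom with group weights (0.0563). Leaving out WT eTreg replicate 1 gave an edgeR adjusted p of 0.157, and leaving out Pggt1b-deficient eTreg replicate 1 or 2 gave 0.161 or 0.068. The other Tcf7 site called, chr11:52088940-52089222, had 48 and 36.1 CPM in Pggt1b-deficient eTreg, against 28.2 and 32.4 CPM in WT eTreg, a log2 fold change of 0.49 ± 0.16 with an edgeR adjusted p of 0.0424. That call was lost under 12 of 15 alternatives, with adjusted p from 0.0148 to 0.517. Left out singly, 7 of the 8 libraries ended it, the exception being Pggt1b-deficient eTreg replicate 2, and the log2 fold change without Pggt1b-deficient eTreg replicate 1 was 0.24. Without that library, or without WT eTreg replicate 1, no Tcf7 site was called in this comparison. It was 1 site without WT cTreg replicate 1 or 2, WT eTreg replicate 2, or Pggt1b-deficient cTreg replicate 1 or 2.

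The 19 Lef1 sites that were lower in WT eTreg were also set beside the comparison within Pggt1b-deficient cells, which shares no library with the WT one. Their median log2 fold change was -0.77 between Pggt1b-deficient eTreg and Pggt1b-deficient cTreg, below 0 at 17 of the 19, against -2.41 between WT eTreg and WT cTreg. Within Pggt1b-deficient cells, 36 of all 49 tested Lef1 sites and 40459 of all 75352 tested sites were below 0. The sites were chosen by their WT values, which puts the WT median too far from 0. Their summed level was 55.6 and 77 CPM in Pggt1b-deficient eTreg, 33.6 and 29.5 CPM in WT eTreg, 122 and 121 CPM in Pggt1b-deficient cTreg, and 94.2 and 97.1 CPM in WT cTreg. From 130.87 to 130.90 Mb, a stretch that holds 7 of these sites, the sums were 15.7 and 25.48 CPM in Pggt1b-deficient eTreg, 9.454 and 9.299 CPM in WT eTreg, 41.83 and 46.1 CPM in Pggt1b-deficient cTreg, and 31.17 and 31.04 CPM in WT cTreg. The order of the WT groups, and any group's place between them, is in part set by this choice of sites. The Pggt1b-deficient eTreg sums came from 254 counts over both libraries for the 19 sites, against 797 in WT eTreg.

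Within Pggt1b-deficient cells, eTreg differed from cTreg by edgeR at 3 Lef1 sites, 1 higher and 2 lower, and at 0 of 22 Tcf7 sites. Over all tested sites 9.12% were called, 4.59% higher and 4.52% lower. At an unadjusted p under 0.05 by edgeR there were 10 Lef1 and 4 Tcf7 sites, against 17913 of all 75352 tested sites. Limma voom with group weights called 1 Lef1 and 0 Tcf7 sites, against 3100 over all sites. DESeq2 also called 3 Lef1 and 0 Tcf7 sites, against 4969 over all sites. The median log2 fold change was -0.41 over the Lef1 sites and -0.16 over the Tcf7 sites, against -0.06 over all sites. Without Pggt1b-deficient eTreg replicate 2 these medians were -0.74 and -0.10, and with only the compared libraries the Lef1 median was -0.10. Both eTreg libraries were below both cTreg libraries at 19 Lef1 and 7 Tcf7 sites, and above them at 4 and 1, against 28.8% below and 20.9% above over all sites.

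At chr3:130874145-130874422 Pggt1b-deficient eTreg had 1.35 and 1.19 CPM, against 8.08 and 12.1 CPM in Pggt1b-deficient cTreg. The log2 fold change was -2.96 ± 0.57 with an edgeR adjusted p of 0.000535, and it stayed called under its 15 alternatives. It rests on 5 counts against 160, a depth-scaled ratio of 7.76 with a 95% Clopper-Pearson interval of 2.6 to 81.4 that takes every 2 counts as 1. WT eTreg was lower there too, with 2.69 and 1.9 CPM against 5.07 and 7.05 CPM in WT cTreg. At chr3:130819118-130819356 Pggt1b-deficient eTreg had 4.93 and 4.74 CPM, against 12.9 and 15 CPM in Pggt1b-deficient cTreg, a log2 fold change of -1.52 ± 0.35 with an edgeR adjusted p of 0.00435. WT eTreg had 5.19 and 4.55 CPM there, against 13 and 11.8 CPM in WT cTreg, and the interaction there was -0.16 ± 0.45 on the log2 scale with an edgeR adjusted p of 0.911. With limma voom and group weights the adjusted p of the Pggt1b-deficient difference at this site was 0.0691, the highest of a range from 0.00342.

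The site higher in Pggt1b-deficient eTreg than in Pggt1b-deficient cTreg was chr3:130860279-130860769, with a log2 fold change of 0.42 ± 0.12 and an edgeR adjusted p of 0.0254. Its adjusted p ran from 0.021 to 0.2 over 15 alternatives. The call was lost without Pggt1b-deficient cTreg replicate 1 (0.0646) or 2 (0.171), without Pggt1b-deficient eTreg replicate 1 (0.2), and with limma voom and group weights (0.0807). Without Pggt1b-deficient eTreg replicate 2, edgeR called 5 Lef1 sites in this comparison.

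Whether the subset difference itself differed between the genotypes was tested by the interaction of genotype and subset. It was called by edgeR at 1 of 49 Lef1 sites, chr3:130860279-130860769, and at 0 of 22 Tcf7 sites, against 1.51% of all tested sites, 0.957% above 0 and 0.555% below. At an unadjusted p under 0.05 by edgeR there were 11 Lef1 sites and 1 Tcf7 site, against 11356 of all 75352 tested sites. DESeq2 and limma voom with group weights each called 1 Lef1 and 0 Tcf7 sites, against 747 and 815 over all sites. The called value was 0.63 ± 0.16 on the log2 scale with an edgeR adjusted p of 0.0348, and it was lost when any library other than Pggt1b-deficient eTreg replicate 2 was left out, with adjusted p of 0.0561 to 0.167. Over all its alternatives the adjusted p ran from 0.0249 to 0.167, and without that replicate 2 there were 2 Lef1 calls. At the 4 Lef1 sites named by rule for lower accessibility in WT eTreg than in WT cTreg the interaction was not called. Those WT values enter it, and some sites with lower mean counts had larger WT changes. It was 2.76 ± 0.77 on the log2 scale at chr3:130898278-130898364 with an edgeR adjusted p of 0.0579, and 1.62 ± 0.54 at chr3:130870792-130870966 with an edgeR adjusted p of 0.116. At chr3:130845289-130845397 it was 2.68 ± 0.80 with an edgeR adjusted p of 0.0769, and at chr3:130902960-130903110 it was 1.66 ± 0.56 with an edgeR adjusted p of 0.13. The median interaction was 0.16 over the Lef1 sites and 0.12 over the Tcf7 sites, against -0.04 over all sites. The Tcf7 median was -0.12 without Pggt1b-deficient eTreg replicate 2, 0.02 without Pggt1b-deficient eTreg replicate 1, 0 without Pggt1b-deficient cTreg replicate 1 and 0.06 without WT cTreg replicate 2. The Lef1 median was 0.36 without WT eTreg replicate 2 and 0.31 without Pggt1b-deficient eTreg replicate 1.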

How the data were processed

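The authors deposited raw counts per site in 1 table of 79758 sites and 8 libraries. Per the submitters' processing notes they used MACS2 2.1.1, Trimmomatic 0.36, bedtools, Picard 2.9.4 and SAMtools. The build was mm9 (NCBIM37), per the same notes. Not given in the sources used here are the aligner, read-end shift, peak threshold, any pooling of libraries for peak calling, and the unit counted, read or fragment. Starts may be off by 1 base, since no source says if they are 0-based. Groups and replicate numbers came from the sample titles. From the counts, edgeR 4.0.16 in R 4.3.3 was run with filterByExpr (75352 sites kept), TMM scaling, 1 model with a mean for each of the 4 groups over all 8 libraries, and two-sided quasi-likelihood F tests with Benjamini-Hochberg adjustment within each of 5 comparisons. Standard errors were derived as the size of the log2 fold change divided by the root of F. Alternatives used DESeq2 1.42.0, limma 3.58.1 with voom and group weights, other scaling and filters, subsets of the libraries, the replicate number as a block, and every 2 counts as 1, the last chosen after seeing the data. The procedure was tested on simulated data. Those counts were drawn without pairs and changed only at sites with a mean count of 20 or more. The simulation therefore does not cover paired counts or changes at sites with fewer counts. Sites are named by this rule: adjusted p under 0.05, a mean count of 20 or more in the compared libraries, no overlap between groups (not asked of the interaction), and up to 4 largest changes in each direction per locus, plus the 3 sites of highest mean CPM and the widest site of each locus. Other sites were named after their values were seen. The members and lists were chosen with earlier results of these data known. Intervals cover counting error only, and floors leave out the counting error of the group with more counts.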

Additional observations from a re-analysis of the deposited data

Results flagged for a closer look

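At the Lef1 site chr3:130860279-130860769 the interaction of genotype and subset was called by edgeR with all libraries. It was the 1 call among 71 tested members, against 1.51% called over all tested sites. The interaction was 0.63 ± 0.16 (SE) on the log2 scale, with an edgeR adjusted p of 0.0348. Pggt1b-deficient eTreg averaged 76.2 ± 3.85 CPM and WT eTreg 40.3 ± 0.614 CPM, while Pggt1b-deficient cTreg averaged 56.9 ± 3.76 CPM and WT cTreg 46.6 ± 0.915 CPM (SD, n = 2 each). Over 14 alternatives the interaction stayed between 0.56 and 0.69, with adjusted p from 0.0249 to 0.167. The call was lost under 8 of them: without the filter on low counts (0.0527), and when WT cTreg replicate 1 (0.101) or 2 (0.167), WT eTreg replicate 1 (0.0949) or 2 (0.115), Pggt1b-deficient cTreg replicate 1 (0.0561) or 2 (0.162), or Pggt1b-deficient eTreg replicate 1 (0.113) was left out. The depth of the Pggt1b-deficient eTreg libraries differs from that of the others, and its part in this result was not tested.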

How the results depend on the processing

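No named site changed direction. Of 248 values of named sites under alternatives, 203 stayed called and 45 did not. In WT eTreg against WT cTreg, the 3 Tcf7 calls became 6 with limma voom and group weights, with only the compared libraries, and with every 2 counts as 1, and 1 to 6 when a library was left out, while the 21 Lef1 calls became 13 to 25. In Pggt1b-deficient eTreg against WT eTreg, the 2 Tcf7 calls became 1 with DESeq2, 0 with limma voom, only the compared libraries and every 2 counts as 1, and 0 to 2 when a library was left out. The 7 Lef1 calls became 4 with only the compared libraries and 5 to 8 when a library was left out. All these calls were higher in Pggt1b-deficient eTreg, except 1 Tcf7 and 1 Lef1 site called lower without Pggt1b-deficient eTreg replicate 2. In Pggt1b-deficient eTreg against Pggt1b-deficient cTreg the 3 Lef1 calls became 1 with limma voom and 2 to 5 when a library was left out. The Lef1 interaction call became 0 without the filter on low counts and 0 to 2 when a library was left out. In Pggt1b-deficient against WT cTreg, 1 Lef1 site was called with only the compared libraries or without both Pggt1b-deficient eTreg libraries, against 0 otherwise. Calls over all tested sites changed too. In WT eTreg against WT cTreg they were 21599 of 75352 in the main fit and 27739 of 75352 with limma voom and group weights. They were 27254 of 74240 with only the compared libraries, and 24546 of 62461 with every 2 counts as 1. In Pggt1b-deficient against WT cTreg they went from 1669 of 75352 to 3163 of 75736 without both Pggt1b-deficient eTreg libraries. The cause of these changes was not tested. Where a left-out library leaves a group with 1, that one is assumed to vary like the others.

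Deviations of libraries with the same replicate number correlated at -0.016 to 0.057 between groups. With 2 libraries a group and few counts at many sites, these values cannot show whether such libraries share a host. With the replicate number as a block, the Tcf7 calls were 2 for WT eTreg against WT cTreg and 1 for Pggt1b-deficient eTreg against WT eTreg, and the Lef1 calls were 20, 0, 6, 3 and 1 in the order WT subsets, cTreg genotypes, eTreg genotypes, Pggt1b-deficient subsets and interaction. Of 16 summed ratios under other filters or plain totals 11 moved by less than the spread between libraries and 5 by more, with no change of sign. Depth limits the comparisons with Pggt1b-deficient eTreg cells, where 12.5% and 16.4% of all sites had no count.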

Other observations

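Across the 8 libraries the log2 summed CPM of the Tcf7 and Lef1 windows moved together, with a Pearson r of 0.883, as a description of libraries that also differ in depth and group. Of 3052 windows of 200 kb elsewhere in the genome, the one most like Tcf7 in its summed level was chromosome 6 from 48.6 to 48.8 Mb, with 47 sites and an r of 0.984. Its sums averaged 430 CPM in Pggt1b-deficient eTreg, 316 CPM in WT eTreg, 561 CPM in Pggt1b-deficient cTreg, and 459 CPM for WT cTreg libraries. Next for Tcf7 were chromosome 4 from 128.2 to 128.4 Mb and chromosome 15 from 74.6 to 74.8 Mb, at an r of 0.983 each. The window most like Lef1 was chromosome X from 34.2 to 34.4 Mb, with 10 sites and an r of 0.988, followed by chromosome 1 from 88.2 to 88.4 Mb and chromosome 7 from 108.6 to 108.8 Mb, at 0.985 each. They were the highest of many windows, so their r values are too large by selection.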
